A study of Mus musculus with 27 samples.

Results

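Mt1, Mt2 and Mt3 encode metallothioneins, Mtf1 encodes the transcription factor that senses zinc, and Slc30a1 encodes the zinc exporter ZnT1 of the cell surface. These 5 genes, of 35527 gene names on the array, were chosen by name because metallothionein signal was higher in muscle-specific Smn1 knockout myofibers than in WT ones, so the difference between these groups is described below for them with no test. The array carries 8 probes for them, of 55681 probes, each 60 bases long. RNA of 27 single myofibers from the tibialis anterior of 7 male mice was amplified and hybridised, 1 myofiber to an array. The 8 WT myofibers came from 2 mice, the 12 Smn1deltaSKM myofibers from 3 mice and the 7 Smn1deltaSKM+AFS myofibers from 2 mice. These numbers follow the sample labels, whereas the study's results name 5 treated myofibers from 3 mice. Smn1deltaSKM mice carried floxed exon 7 of Smn1 on both alleles (Smn F7/F7) and Cre under the human skeletal actin promoter (HSA-Cre), which acts in muscle fibers and leaves other cells of the muscle intact. Smn1deltaSKM+AFS mice carried the same alleles and had received mouse amniotic fluid stem (AFS) cells, sorted for c-kit and GFP, through the tail vein. The labels give 3 months as the age of every mouse, whereas the methods place the injection at that age and the collection a month later. The study's results call the WT mice control littermates, whereas its methods name C57BL/6 GFP+ mice as a source of single myofibers. No Cre or floxed allele is named for the WT mice. The methods give the C57BL/6 strain for the GFP mice and name none for the Smn F7/F7 recipients.

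Metallothioneins are small proteins whose many cysteines bind zinc and copper, and they buffer the free zinc of a cell. When zinc rises, the protein of Mtf1 binds metal response elements (MRE) in the promoters of Mt1, Mt2 and Slc30a1, so that zinc is bound by the former and exported by the latter. Glucocorticoids and oxidative stress also induce Mt1 and Mt2, which are expressed in most tissues, muscle included, whereas Mt3 is best known from brain.

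The promoters of the metallothionein genes and of Slc30a1 are shown because these are the genes through which Mtf1 is known to act. Each line gives the 250 bases before the RefSeq start, 5′ to 3′ on the + strand of GRCm38.p6, with capitals at each MRE core (TGCACNC or TGCGCNC, on either strand):
Mt1 (chr8:94178839-94179088): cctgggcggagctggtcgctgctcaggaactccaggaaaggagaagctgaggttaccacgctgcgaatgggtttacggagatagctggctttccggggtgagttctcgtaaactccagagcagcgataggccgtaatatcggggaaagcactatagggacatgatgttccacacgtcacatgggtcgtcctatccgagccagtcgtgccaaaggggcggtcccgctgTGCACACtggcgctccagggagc
Mt2 (chr8:94172368-94172617): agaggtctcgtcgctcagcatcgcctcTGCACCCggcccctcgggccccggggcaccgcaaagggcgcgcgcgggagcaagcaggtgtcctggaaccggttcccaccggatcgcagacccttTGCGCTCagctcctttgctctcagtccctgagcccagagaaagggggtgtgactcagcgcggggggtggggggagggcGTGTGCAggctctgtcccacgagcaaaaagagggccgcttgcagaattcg
Mt3 (chr8:94152357-94152606): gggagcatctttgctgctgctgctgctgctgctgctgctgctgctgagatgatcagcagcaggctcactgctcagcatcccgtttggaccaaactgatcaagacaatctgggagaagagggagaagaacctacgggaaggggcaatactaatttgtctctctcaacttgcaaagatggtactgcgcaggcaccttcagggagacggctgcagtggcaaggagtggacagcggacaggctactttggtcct
Slc30a1 (chr1:191906531-191906780): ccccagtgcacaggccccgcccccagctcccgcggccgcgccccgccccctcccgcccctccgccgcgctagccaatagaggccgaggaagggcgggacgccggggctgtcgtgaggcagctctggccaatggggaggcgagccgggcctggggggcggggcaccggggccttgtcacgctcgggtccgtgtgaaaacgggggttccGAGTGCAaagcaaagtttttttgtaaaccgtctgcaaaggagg

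Counted over the full window of the reference table, 250 bases before to 50 after the start, Mt2 held 4 MRE cores and Mt1 held 3. In Mt1, 1 core (TGCACAC) began 23 bases before the start and the others (TGCACTC and TGCGCTC) began at bases 3 and 21 after it. In Mt2, cores began 223, 128 and 50 bases before the start and 1 more at base 5 after it. Slc30a1 held 2 cores, Mt3 held 1 after the start and Mtf1 held none. Of 32851 promoters of the same length, 25.7% held at least 1 core, 1.97% at least 3 and 0.517% at least 4. The core of the antioxidant response element (TGACNNNGC), to which NRF2 is known to bind, occurred once in Mt2 (TGACTCAGC, 79 bases before the start) and once in Slc30a1 (GCCTTGTCA, 82 bases before), and in 12.4% of all promoters, overlapping no MRE core in either gene. These matches describe letters in 1 window, and a gene without a match may hold the element elsewhere.

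Signals are log2 values minus the 75th percentile of log2 signal on the same array, so that 0 is a spot at that percentile. Values on this scale compare myofibers for 1 probe and not probes with each other. Each array had a value (spot found, well above background and uniform) for 23871 to 34012 probes in WT, 23183 to 37595 in Smn1deltaSKM and 25887 to 30498 in Smn1deltaSKM+AFS, and no spot was saturated. The WT arrays shared a single slide and a scan day, neither of which held any other group, so that genotype cannot be told apart from slide and scan day in any comparison with WT. As a check of the label, 11 of 12 myofiber markers were well above background on at least 50% of the arrays in every group (Myh2 on none in WT), and their summed level ranged from 11.19 to 11.98 in WT, 10.74 to 11.46 in Smn1deltaSKM and 11.32 to 11.77 in Smn1deltaSKM+AFS. Among myofiber markers Myh1 was called higher in Smn1deltaSKM than in WT and Ckm, Mylpf and Actn3 lower. Of 4 macrophage and leukocyte markers, 3 could be tested. Cd68 (difference 3.0, adjusted p = 0.0371) and Ptprc (1.33, adjusted p = 0.0225, limma on mouse means) were also called higher. Csf1r differed by -0.498 and was not called (adjusted p = 0.175). Among all genes 7.50% were called higher and 13.5% lower. The summed level of the 4 markers ranged from 4.44 to 5.13 in WT and from 4.25 to 5.07 in Smn1deltaSKM. It follows Csf1r more than Cd68 or Ptprc, since their WT means were 4.7, -1.091 and -1.369. The summed level of 6 fibroblast markers ran from -0.32 to 6.86 in WT and from 0.61 to 5.11 in Smn1deltaSKM, with Pdgfra well above background on no array. The part of these cells in the results below was not tested. Of the 2 Smn1 probes, 1 averaged 1.84 ± 0.02 in WT (SD, n = 2 mice), 0.16 ± 0.22 in Smn1deltaSKM (n = 3) and 0.24 ± 0.82 in Smn1deltaSKM+AFS (n = 2), and the other 2.40 ± 0.37, 2.59 ± 0.47 and 2.79 ± 0.30. Which exon each probe reads was not looked up. An array holds the RNA of 1 myofiber and of any cells left on it, and less RNA of a gene cannot be told apart from less RNA of the cells that make it.

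Among the 10 pairs of probes to Mt1, Mt2, Mt3 and Mt4, the longest stretch of identical bases shared by a pair was 8. Whether a probe also takes up RNA of another metallothionein gene was not tested, as no transcript sequences were compared. Mt1 has 2 probes, at chr8:96704165-96704224 (probe 1) and chr8:96703844-96703903 (probe 2, designed on a cDNA). Mt2 is read at chr8:96697371-96697430 and Mt3 at chr8:96677927-96677986, all in the mm9 positions of the array design. No annotation of that build was at hand, so exons and untranslated regions are not given.

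Of the member probes, that of Mt2 differed most between WT and Smn1deltaSKM. In WT, Mt2 signal was 2.01 in the lowest myofiber, 3.89 in the median and 5.73 in the highest. In Smn1deltaSKM the lowest, median and highest values were 6.46, 7.24 and 7.83. All 12 Smn1deltaSKM myofibers therefore lay above all 8 WT myofibers, a separation found in this direction for 3.42% of 17059 genes, and nothing is read from it since Mt2 was chosen on this contrast. Mouse means averaged 3.74 ± 1.44 in WT (SD, n = 2 mice) and 7.19 ± 0.40 in Smn1deltaSKM (n = 3), a difference of 3.46 on the log2 scale or 11-fold. The size of that difference depended on the WT mouse, since WT mouse 1 averaged 4.75 and WT mouse 2 averaged 2.72. It was 4.47 without WT mouse 1 and 2.44 without WT mouse 2.

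Mt1 followed the same order with more overlap. On probe 1, WT myofibers ran from 3.44 through a median of 4.11 to 6.31, and Smn1deltaSKM myofibers from 5.56 through 6.36 to 7.21. A single WT myofiber, number 1 of mouse 1, lay within the Smn1deltaSKM range at 6.31, and it also had the highest Mt2 signal of its group. Mouse means averaged 4.47 ± 0.82 in WT (n = 2) and 6.38 ± 0.39 in Smn1deltaSKM (n = 3), a difference of 1.90 or 3.74-fold. Leaving out 1 WT mouse gave 2.48 (mouse 1) or 1.32 (mouse 2).

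Probe 2 of Mt1 spread differently and had a value on 5 of 8 WT and 11 of 12 Smn1deltaSKM arrays. It ranged from -1.21 to 0.80 in WT (median -0.14) and from 0.21 to 3.82 in Smn1deltaSKM (median 2.44). The Smn1deltaSKM mice disagreed on it: the 4 myofibers of mouse 2 lay between 0.21 and 0.77, at the top of the WT range, whereas those of mouse 1 lay between 2.39 and 3.76. On probe 1 mouse 2 stood at 6.19, close to mouse 3 at 6.12. The probes of this gene thus gave the same order of group means (-0.23 ± 0.19 and 2.04 ± 1.33 on probe 2) but not the same order of myofibers, and the correlations between them are given further on.

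Mt3 was also higher in Smn1deltaSKM, with some overlap. Its lowest, median and highest signals were -0.72, 0.08 and 0.55 in WT, against -0.01, 1.79 and 2.51 in Smn1deltaSKM. In Smn1deltaSKM 10 of 12 myofibers lay above every WT myofiber, and the other two, at -0.01 and 0.23, came from mouse 3. Mouse means averaged -0.08 ± 0.45 (n = 2) and 1.58 ± 0.63 (n = 3), a difference of 1.66 or 3.17-fold.

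**Figure D1:**
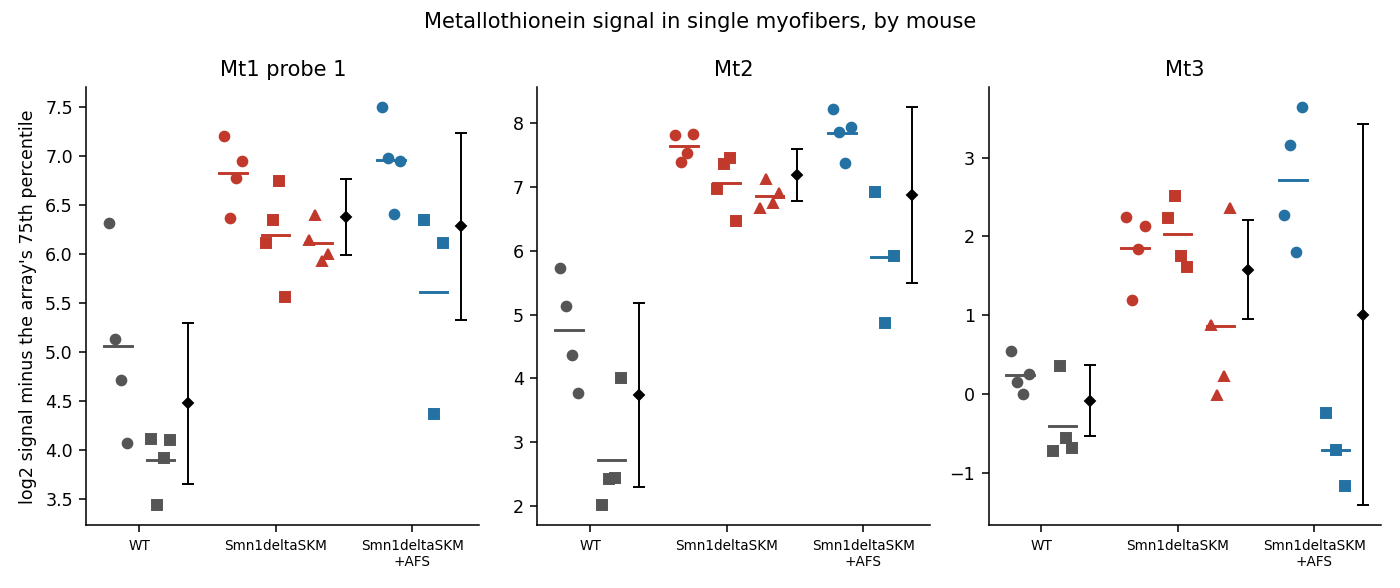
Signal of Mt1 (probe 1), Mt2 and Mt3 in each of the 27 myofibers, as log2 signal minus the 75th percentile of the array; each panel has its own vertical scale. Circles, squares and triangles are myofibers of mouse 1, 2 and 3 of a group, horizontal lines are mouse means, and black diamonds with bars are the mean ± SD of the mouse means. For Mt2 the WT myofibers, at 2.01 to 5.73, lie below all Smn1deltaSKM myofibers, and for Mt3 the myofibers of Smn1deltaSKM+AFS mouse 2, at -1.16 to -0.24, lie below those of mouse 1, at 1.80 to 3.64.

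Slc30a1, the exporter, was near the detection limit. Its spot (chr1:193736760-193736819, mm9) was well above background on 1 of 8 WT arrays, 11 of 12 Smn1deltaSKM arrays and 7 of 7 Smn1deltaSKM+AFS arrays. The scanner software marked several of these spots as not found at their expected place, which left a value on 1, 5 and 6 arrays, too few for the fit. Measured signals ran from -4.58 to -2.52 in WT (median -3.41), from -2.99 to 1.74 in Smn1deltaSKM (median -2.18) and from -2.82 to -1.22 in Smn1deltaSKM+AFS (median -2.25). The highest, 1.74, belonged to a spot marked as not found, and the next, 0.47, to another myofiber of the same mouse. Since WT signals were mostly not above background, no fold is given.

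Mtf1, the sensor, overlapped between the groups. On its probe at chr4:124526365-124526424 (mm9), the only one of 3 with values throughout, WT myofibers ranged from -0.92 to 0.59 (median 0.05) and Smn1deltaSKM myofibers from -1.13 to 0.33 (median -0.41). The mice overlapped too, and the means of -0.01 ± 0.21 (n = 2) and -0.48 ± 0.35 (n = 3) differed by -0.47. The second probe was well above background on 5 of 8 WT, 4 of 12 Smn1deltaSKM and 0 of 7 Smn1deltaSKM+AFS arrays, too few for a comparison of levels. The third was not well above background on any array.

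Of the members, 4 genes with 5 probes had values on at least 75% of the arrays and entered the fit; Slc30a1 and 2 Mtf1 probes did not. Against the untreated knockout mice, none of the 5 probes differed in Smn1deltaSKM+AFS (limma on mouse means, adjusted over all probes), beside 0% of 16648 genes called in either direction, of which 514 had an unadjusted p under 0.05. The Smn1deltaSKM mice are those on which the members were chosen. Only slide 3 held both treated and untreated arrays, 1 of each, so treatment can hardly be told apart from slide. Mt2 in Smn1deltaSKM+AFS had a lowest signal of 4.87, a median of 7.38 and a highest of 8.22, and its mouse means averaged 6.87 ± 1.38 (n = 2), -0.32 from Smn1deltaSKM (SE 0.70, adjusted p = 1). Mt1 probe 1 ran from 4.37 through 6.40 to 7.50, with a mean of 6.28 ± 0.95 and a difference of -0.09 (SE 0.50, adjusted p = 1). These standard errors leave room for differences of either sign.

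On the fitted probes the treated mice stood apart from each other more than the treated and untreated knockout groups did. The 4 myofibers of Smn1deltaSKM+AFS mouse 1 had Mt2 signals of 7.38 to 8.22, 3 of them above every untreated knockout myofiber, and the 3 of mouse 2 had 6.92, 5.92 and 4.87. For Mt3 these mice did not overlap, with 1.80 to 3.64 in mouse 1 and -1.16 to -0.24 in mouse 2. The latter lay below every myofiber of WT mouse 1 and within or below the range of WT mouse 2. Mouse 2 averaged -0.70 for Mt3, and the lowest Smn1deltaSKM mouse averaged 0.86. Within the 1 slide that held both treated mice, myofiber 1 of mouse 1 had an Mt2 signal of 8.22 against the same 3 values of mouse 2. Without mouse 2 the difference from Smn1deltaSKM turned to 0.66 for Mt2, 0.58 for Mt1 and 1.14 for Mt3, none of them called.

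None of the remaining probes was called for the treatment. Mt3 differed by -0.57 (SE 0.86), Mt1 probe 2 by 0.21 (SE 0.65) and the Mtf1 probe by 0.18 (SE 0.37), each with adjusted p = 1. Of the scan days that held treated and untreated arrays, day 1 had 1 mouse on each side and no test. Day 2 had 3 untreated and 2 treated mice, so the days also differed in mice. Mt2 differed by 0.04 on day 1 and by -0.26 on day 2 (adjusted p = 0.963). Mt3 turned sign between the days, from 0.72 to -0.55, as did Mt1 probe 2 (-0.58 to 0.50) and the Mtf1 probe (-0.92 to 0.32), whereas Mt1 probe 1 stayed near 0 with -0.09 on day 1. Against WT, treated mice averaged 3.14 higher for Mt2, 1.81 for Mt1 probe 1 and 1.09 for Mt3. The mice of these groups overlapped for Mt3, and its difference was -0.62 without Smn1deltaSKM+AFS mouse 1. These are descriptions, since the WT mice served to choose the genes. Of the 7 treated myofibers, 6 lay above every WT myofiber for Mt2 and 5 for Mt1 probe 1.

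**Figure D2:**
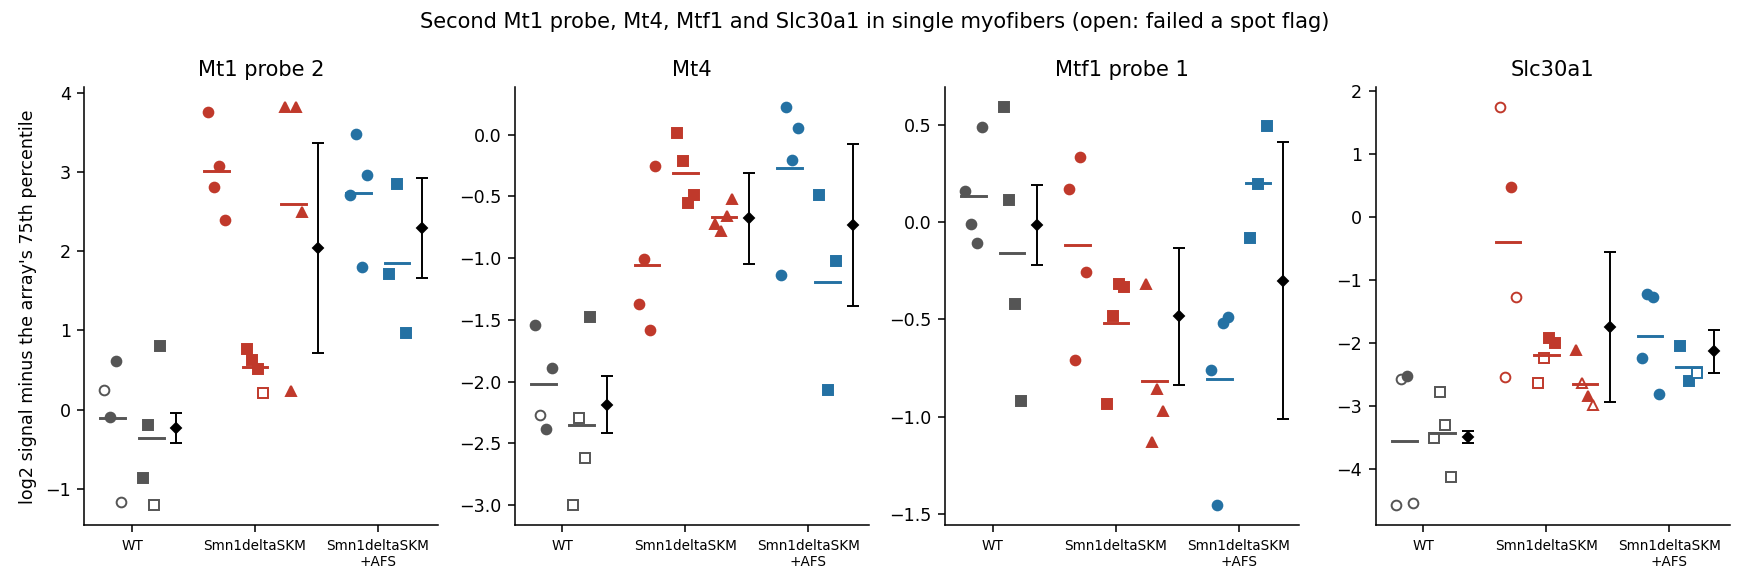
Signal of Mt1 probe 2, Mt4, the Mtf1 probe with values throughout and Slc30a1 in each myofiber, drawn as in the plot of Mt1, Mt2 and Mt3, with open symbols where a spot failed a flag (not found, not well above background or not uniform). For Slc30a1 only 1 WT symbol is filled, and for Mtf1 the 3 groups overlap.

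Mt1 and Mt2 tracked each other from myofiber to myofiber. Pearson's r between Mt1 probe 1 and Mt2 was 0.86 over the 8 WT myofibers, 0.95 over the 12 of Smn1deltaSKM and 0.95 over the 7 of Smn1deltaSKM+AFS, with Spearman's rho of 0.76, 0.93 and 0.96. After each mouse mean was subtracted, r over the 27 myofibers was 0.81 and rho 0.79. These are descriptions, since myofibers of a mouse are not independent and probes of 1 array share its scaling. Probe 2 of Mt1 did not track probe 1 in this way (r = -0.03 after mouse means were subtracted), nor Mt2 (0.14). Mt3 followed Mt2 across Smn1deltaSKM+AFS myofibers (r = 0.86), where the mice differ, and little once mouse means were subtracted (0.17). Mtf1 had r = -0.42 with Mt2 after that subtraction, and its sign differed between groups, from 0.49 in Smn1deltaSKM to -0.79 in Smn1deltaSKM+AFS.

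**Figure D3:**
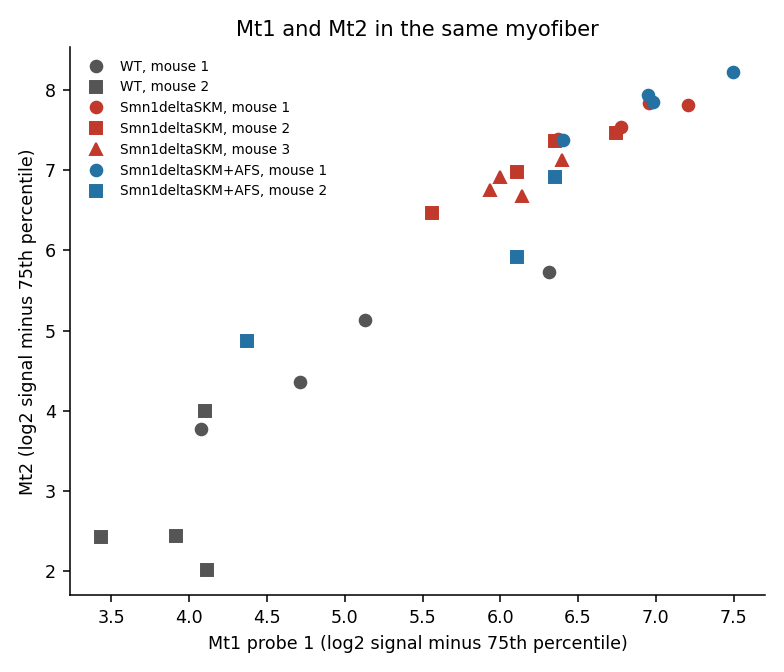
Mt2 against Mt1 probe 1 in the same myofiber, both as log2 signal minus the 75th percentile of the array; colours are groups and symbols are mice. The points follow 1 rising band, with Pearson's r of 0.81 after each mouse mean is subtracted.

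Spread among the myofibers of a mouse differed between groups for Mt2. The SD within a mouse, pooled over the mice of a group, was 0.87 in WT, 0.31 in Smn1deltaSKM and 0.77 in Smn1deltaSKM+AFS, and the highest and lowest myofibers of a group differed 13.2-fold, 2.59-fold and 10.2-fold. For Mt1 probe 1 the within-mouse SD was 0.70, 0.37 and 0.83. The mouse with the widest spread in Mt2 was Smn1deltaSKM+AFS mouse 2 (SD 1.03, 3 myofibers). Mouse 1 averaged higher than mouse 2 in each of the 3 groups for Mt2, and likewise for Mt1 probe 1. The Mt2 means were 4.75 and 2.72 in WT, 7.64 and 7.07 in Smn1deltaSKM and 7.85 and 5.90 in Smn1deltaSKM+AFS. Smn1deltaSKM mouse 3 averaged 6.865 for Mt2. For Mt3 the order was the other way in Smn1deltaSKM, with 1.85 in mouse 1 and 2.025 in mouse 2. The numbers are labels within a group, and no label pairs mice across groups.

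Genes most like the metallothioneins were ranked by Pearson's r with the mean of Mt1 probe 1 and Mt2, over 10442 genes with values on all 27 arrays. The closest was listed as Pip5k1a, a kinase that makes the lipid PIP2, with r = 0.96. It was followed by Tnip2, a brake on NF-κB signalling (0.88), Tuba1c, an alpha-tubulin (0.88), Slc2a1, the glucose transporter GLUT1 (0.87), and Fam102a (0.85). Such values carry the group difference, which the genes were chosen on.

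The value for Pip5k1a came from 1 of its 3 probes. The probe lies at chr3:94901128-94901187 (mm9), apart from the others at chr3:94874749-94874808 and chr3:94863495-94863535, and its measured signal had r = 0.96 with the metallothioneins where the others had 0.01 and -0.06. It ran from 1.40 to 4.31 in WT, from 4.68 to 6.59 in Smn1deltaSKM and from 3.61 to 6.48 in Smn1deltaSKM+AFS, whereas the second probe had group means of 3.42, 3.25 and 3.28. Its sequence is shown because it bears on what was measured, with capitals at the TGC codons of 1 open reading frame:
Pip5k1a probe 1: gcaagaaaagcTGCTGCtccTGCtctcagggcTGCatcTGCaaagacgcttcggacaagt
TGC and TGT encode cysteine, the residue in which metallothioneins are rich. The frame holds 5 of them in 60 bases, a count that 385 of 55681 probes (0.691%) reach in an open frame, and the probe shares a stretch of 11 bases with 1 of the metallothionein probes, among which the Mt4 probe has 9 such codons and those of Mt1 and Mt2 have at most 2. Whether this probe takes up metallothionein RNA was not tested, as no transcript sequences were used here.

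**Figure D4:**
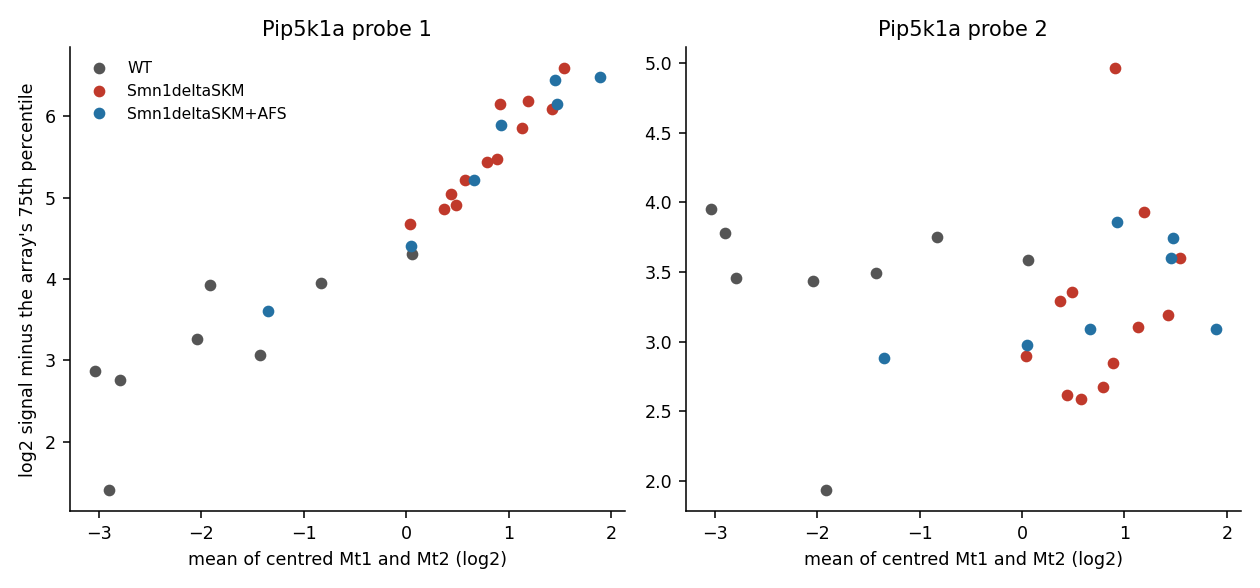
Measured log2 signal minus the 75th percentile for Pip5k1a probe 1 (left) and probe 2 (right) against the mean of the centred Mt1 and Mt2 signals, 1 point per myofiber and colours by group; the vertical scales differ. Probe 1 rises with the metallothioneins (r = 0.96) and probe 2 does not (r = 0.01).

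After mouse means were subtracted, the genes with the highest r were Skil, a repressor of TGF-β signalling (0.86), Tuba1c (0.80), Pip5k1a (0.79), Nfe2l2, which encodes NRF2 (0.70), and Pqlc1 (0.69). The lowest were Fcgrt, the neonatal Fc receptor (-0.64), Slc30a7, a zinc transporter of the Golgi (-0.63), Pusl1 (-0.62), Ppid, a cyclophilin (-0.61), and Slc30a2, a zinc transporter of vesicles (-0.61). Skil had group means of 1.36 in WT, 0.97 in Smn1deltaSKM and 1.40 in Smn1deltaSKM+AFS, so that it varied with the metallothioneins between myofibers and not between groups in the same way. The value for Pip5k1a was again that of its probe 1, whereas its other probes had r of -0.32 and -0.22 after mouse means were subtracted.

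In Smn1deltaSKM against WT, limma called 0 of 10 tested zinc transporters other than Slc30a1 higher and 3 lower, beside 7.50% of 17059 genes called higher and 13.5% called lower. Of the ZnT family, which moves zinc out of the cytosol, 4 of 9 genes could be tested, and Slc30a4 fell by 1.27 (SE 0.33, adjusted p = 0.0316). No ZnT gene was called lower under median centring or with no filter on spots. Of the ZIP family, which brings zinc into the cytosol, 6 of 14 could be tested: Slc39a13, which releases zinc from internal stores, fell by 2.46 (SE 0.28, adjusted p = 0.00704), and Slc39a1, an importer of the cell surface, fell by 1.39 (SE 0.27, adjusted p = 0.0155). The medians were -0.41 for ZnT and -0.14 for ZIP genes, beside -0.13 for all genes, and that of ZIP genes turned to 0.04 under another scaling. With no filter on spots all 9 ZnT and 14 ZIP genes could be tested, 1 of each family was called higher, and the ZIP median was 0.38. Group means of Slc39a13 were 0.73 in WT, -1.73 in Smn1deltaSKM and -1.55 in Smn1deltaSKM+AFS.

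Mt4, the metallothionein of squamous epithelia, lies in the same cluster of genes on chromosome 8. Its spot was well above background on 4 of 8 WT, 12 of 12 Smn1deltaSKM and 7 of 7 Smn1deltaSKM+AFS arrays, so it entered the fit through the groups where it was high. Measured signals ran from -3.0 to -1.48 in WT and from -1.58 to 0.01 in Smn1deltaSKM, and the difference fitted to spots with a value, 1.03 (SE 0.37), did not pass (adjusted p = 0.0806). Among 5 tested genes of 6 that respond to Mtf1 beside the members, Selenow, a selenoprotein abundant in muscle, fell by 1.07 (SE 0.31, adjusted p = 0.0412) and none was called higher. Over all genes 13.5% were called lower and 7.50% higher. The list had a median of 0.19. Ndrg1 differed by 1.68 (adjusted p = 0.105), Gclc by 0.43, Csrp1 by 0.19 and Slc40a1 by -0.74.

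Among copper and iron genes 6 calls were made, to be read against the 7.50% of all genes called higher, the 13.5% called lower and the median of -0.13. Of 9 tested copper genes of 11, 2 were called lower and 0 higher, with a median of -0.41: Ccs, the chaperone that loads copper into Sod1, fell by 1.24 (adjusted p = 0.0372) and Sod1, the copper-zinc superoxide dismutase, by 1.08 (adjusted p = 0.0234). Neither was called with no filter on spots or with slide as a random block. Of 10 tested iron genes of 13, 3 were called lower and 1 higher, with a median of -0.68. Ncoa4, the receptor that takes ferritin to autophagy, fell by 1.57 (adjusted p = 0.0177), Pcbp2, an RNA-binding iron chaperone, by 1.29 (adjusted p = 0.027) and Fth1, the ferritin heavy chain, by 1.21 (adjusted p = 0.0234). Hmox1, heme oxygenase-1, was the one called higher, by 3.28 (SE 0.64, adjusted p = 0.0155).

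Targets of NRF2 and genes induced by glucocorticoids were examined since both are known to act on Mt1 and Mt2. Of 8 tested NRF2 targets of 10, 3 were called higher and 0 lower, beside 7.50% and 13.5% of all genes, with a median of 0.44: Srxn1, sulfiredoxin, rose by 4.21 (SE 0.93, adjusted p = 0.0208), Osgin1, an oxidative stress response gene, by 3.61 (SE 0.86, adjusted p = 0.0255) and Hmox1 as above. The others did not pass: Txnrd1 (0.44), Gclc (0.43) and Mafg (0.30) lay above 0, and Gsr (-1.04) and Nqo1 (-1.11) lay below. All 10 glucocorticoid-induced genes were tested, and 1 was called higher and 3 lower, against the same shares of all genes, with a median of -1.28. Fkbp5, a co-chaperone of the glucocorticoid receptor, fell by 2.02 (SE 0.39, adjusted p = 0.0146), Ddit4, an inhibitor of mTORC1, by 1.92 (SE 0.43, adjusted p = 0.0212) and Klf15, a metabolic transcription factor, by 1.45 (SE 0.42, adjusted p = 0.0432). Errfi1, a feedback inhibitor of the EGF receptor, rose by 2.28 (SE 0.66, adjusted p = 0.0425).

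Over the 8 lists, 4 of 50 tested genes were called higher and 12 lower, where 7.50% and 13.5% of all genes were, so that the count of higher calls was near that of genes at large. With 1 WT mouse left out, no gene of the lists was called, whichever mouse it was, and without Smn1deltaSKM mouse 2 or mouse 3 the counts were 1 and 4, or 2 and 5. Centring arrays on the median of probes detected throughout moved the median of all genes from -0.13 to 0.08 and the share of higher calls among all calls from 35.6% to 56.5%, with 4 list genes higher and 7 lower. With no filter on spots that share was 52.6%. In Smn1deltaSKM+AFS against Smn1deltaSKM, no gene of these lists was called: differences ran from -0.92 for Csrp1 to 1.65 for Tfrc, the transferrin receptor (adjusted p = 1 for each; these ends of the range were named after their values were seen).

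**Figure D5:**
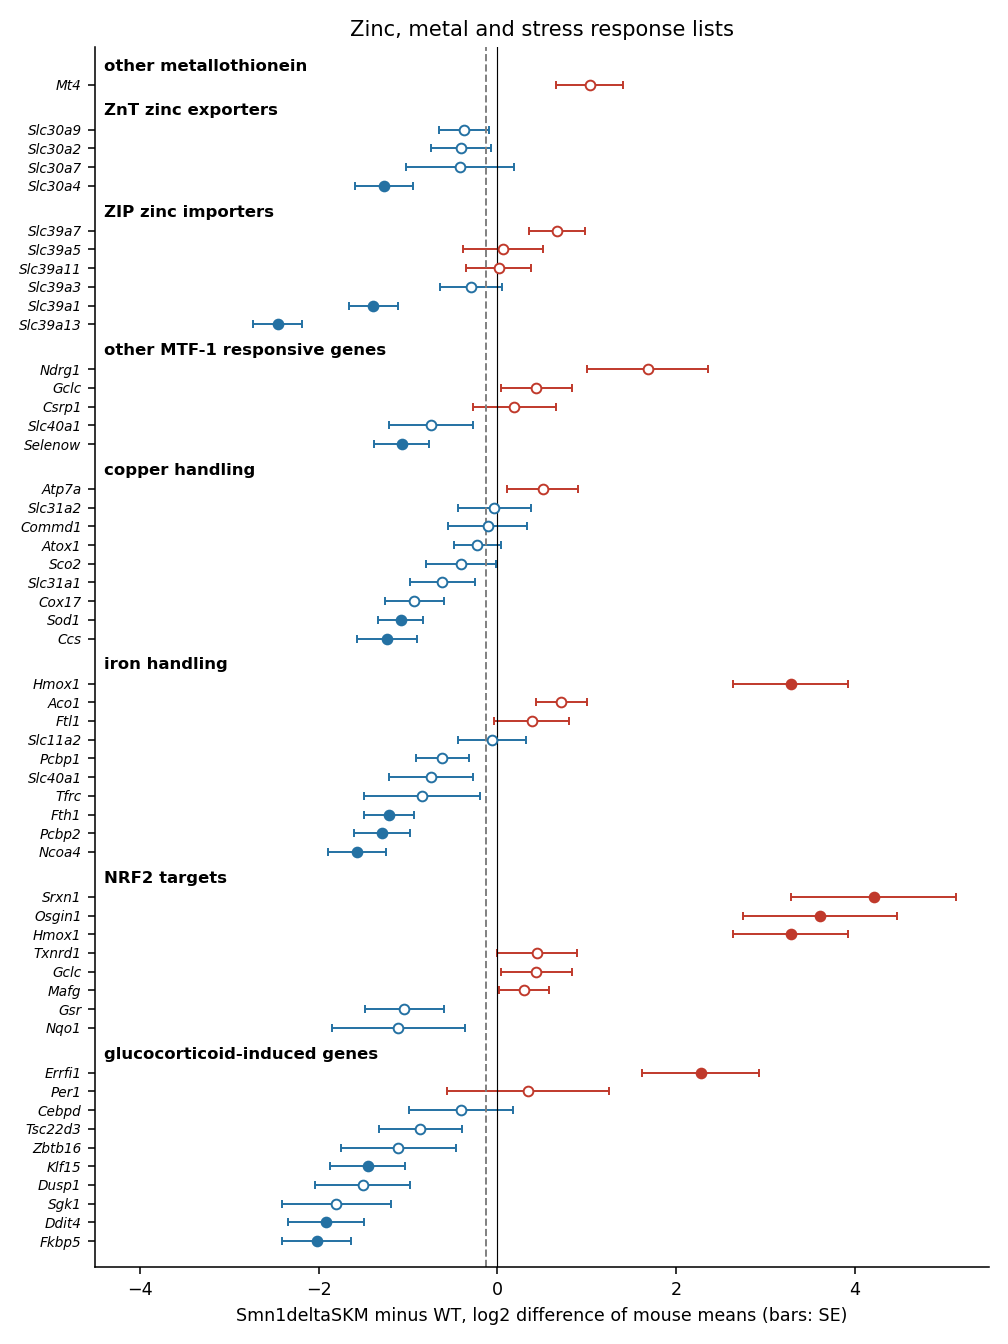
Difference of Smn1deltaSKM and WT mouse means in log2 units, with limma's SE as bars, for each tested gene of the 8 lists; filled symbols passed adjusted p under 0.05, and the dashed line is the median of all genes (-0.13). Filled symbols to the right are Hmox1 (in 2 lists), Srxn1, Osgin1 and Errfi1, and none of them is a zinc transporter.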

How the data were processed

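The authors hybridised amplified RNA of single myofibers to SurePrint G3 Mouse 8x60K arrays and deposited 1-colour scanner files (Agilent Feature Extraction 10.7.3.1) with intensity values per spot, background-subtracted by that software, and a table of normalized intensity values whose scaling is not given in the sources used here. The deposited processed intensity was taken to log2 and each array's 75th percentile was subtracted; a value needed a spot that was found, well above background and uniform. Spot flags were used as deposited, as other marks of 0 or 1. Myofibers of a mouse were averaged, since genotype and treatment belong to the mouse. limma 3.58.1 (R 4.3.3) was fitted to the 7 mouse means, over probes that had a value on 75% or more of the 20 WT and Smn1deltaSKM arrays (22882 probes) or of all 27 (22169), with Benjamini-Hochberg adjustment over all probes and a threshold of 0.05. A gene is its brightest passing probe. Ranges and levels of the members are of the measured signal, also where a spot had no value. The number of arrays limits the precision. The methods used myofibers as replicates, which is an alternative here.

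The members and the gene lists were chosen with earlier results of these data known. Member differences from WT are given without a test for that reason, also for Smn1deltaSKM+AFS, for which a test had been laid down. Named were all member probes, the called genes of each list (at most 6), and the genes most and least like the mean of Mt1 and Mt2, leaving out names that are clone or accession numbers. Promoters came from RefSeq (GRCm38.p6), which matched all 5 members. The fit was tested on simulated data. Alternatives were quantile normalization, median centring, normexp with an offset of 50, the authors' value table, no filter or a stricter one, myofibers as replicates, slide or mouse number as a block, arrays of 1 scan day, leaving out each mouse or Smn1deltaSKM myofibers 1 to 3, and the mean of a gene's probes.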

Additional observations from a re-analysis of the deposited data

How the results depend on the processing

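Smn1deltaSKM minus WT kept its sign for Mt1 probe 1, Mt2, Mt3 and Mtf1 in 18 alternatives and for Mt1 probe 2 in the 16 that gave a value. It ran from 1.32 to 2.48 for Mt1 probe 1 and from 2.44 to 4.47 for Mt2, with the same ends when 1 mouse was left out. In 1 of the 18 alternatives the mean of the Mt1 probes stood in for probe 1 and gave 1.28. Smn1deltaSKM+AFS minus WT ran from 1.13 to 2.48 for Mt1, from 2.12 to 4.16 for Mt2, from -0.62 to 2.80 for Mt3 and from -0.79 to 0.22 for Mtf1 when 1 mouse was left out. Smn1deltaSKM+AFS minus Smn1deltaSKM was called for no tested member in 19 alternatives (17 for Mt1 probe 2), and its sign rested on single mice: leaving out 1 mouse gave -0.77 to 0.58 for Mt1 probe 1, -1.29 to 0.66 for Mt2, -0.51 to 0.68 for Mt1 probe 2, -2.28 to 1.14 for Mt3 and -0.32 to 0.69 for Mtf1. Mt1 probe 1 turned to 0.13 without Smn1deltaSKM mouse 1, and Mt1 probe 2 to -0.51 without Smn1deltaSKM mouse 2 and to -0.23 without Smn1deltaSKM+AFS mouse 1. With slide as a random block Mt3 turned to 0.20 and Mtf1 to -0.11. The cause was not tested.

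Against 12 list genes called lower in Smn1deltaSKM, 7 were under quantile normalization, median centring, the authors' value table, no filter, values on every array and the mouse number as a replicate block, and 5 with slide as a random block; 7 genes were higher with no filter. Leaving out 1 mouse gave 0 to 6 genes higher and 0 to 17 lower. Of the 16 called list genes none changed direction in the alternatives run. Over all genes, 1279 higher and 2310 lower became 2267 and 3631 with myofibers as replicates, 755 and 1455 with the replicate block and 479 and 1263 with the slide block; lower calls fell to 1528 under quantile normalization and 1317 under median centring, higher calls were 2455 with no filter and 751 with values on every array, and leaving out 1 mouse gave 0 to 3089 higher and 0 to 4392 lower (0 without either WT mouse, with 3574 and 4540 genes at an unadjusted p under 0.05). No label ties the mouse number to a shared litter or day, although the arrays of scan day 1 and of slide 3 were all of mouse 1 of Smn1deltaSKM and mouse 1 of Smn1deltaSKM+AFS. Same-numbered mice deviated from their group means with correlations of -0.05 to 0.30 (0.30 for this pair). With the number as a replicate block, Mt1 probe 1 differed by -0.22 and Mt2 by -0.48 between treated and untreated mice (adjusted p = 1). With 2 WT mice on a slide of their own, neither more probes nor more myofibers of these mice would separate genotype from batch.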
